A study of Homo sapiens with 6 samples.

Results

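The nucleolar ribosome biogenesis genes are 40 genes for proteins that transcribe, modify, cut and package ribosomal RNA in the nucleolus. They were chosen by function, with earlier results of these data known. A gene was measured where the array's annotation assigned at least 1 probe set, a group of short probes for 1 transcript, to that gene alone. By that rule 33 of the 40 genes were measured, by 73 of 54613 probe sets, and the array covered 19775 genes in all. NOP56, DKC1, BOP1 and PPAN lie only on probe sets that also name another gene, among them the small RNAs hosted in introns of NOP56 and DKC1, and have no value here. EBNA1BP2, DDX18 and GNL3 were not named by a probe set here. Where a gene had several probe sets, the brightest, with the highest mean over all arrays, stood for it unless another is named.

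The 6 arrays came from BL2, an established Burkitt lymphoma line of human origin, grown in complete RPMI medium and transfected by electroporation. The control group of 3 arrays received scrambled siRNA and the other group of 3 arrays a pool of 4 siRNAs against LEF1, a transcription factor that acts with beta-catenin downstream of Wnt. The series describes 3 biological replicates per group, and each of 3 labelled batches holds 1 array of each group. All cells shared the line and the electroporation, no untransfected cells were compared here, and the pool does not separate the effects of its siRNAs. The question is whether the genes of ribosome assembly differ between cells with lowered LEF1 and their controls.

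In the nucleolus RNA polymerase I transcribes a long precursor of ribosomal RNA, which box C/D and box H/ACA ribonucleoproteins modify, guided by small nucleolar RNAs. Separate sets of assembly factors then fold and cut it into the precursors of the small and of the large ribosomal subunit. Burkitt lymphoma carries a translocation that activates MYC, a transcription factor that binds the sequence CACGTG, called an E-box, and genes of ribosome assembly are among its known targets.

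RefSeq's promoter table for GRCh38.p14 gives the 250 bases before and 50 bases after a transcript start, and it held 42 windows for 33 of the 40 genes. These 33 are not the same set as the 33 measured genes, and 28 genes are in both sets. CACGTG, which reads the same on both strands, occurred in 18 of these windows (42.9%), against 7.26% of 35116 windows of all genes. By gene, 17 of 33 (51.5%) had a match, against 8.77% of 27305. The core sequence bound by TCF/LEF factors, searched on both strands as CTTTG followed by A or T at each of the next 2 positions, occurred in 3 of the 42 windows (7.14%), those of POLR1A, DDX21 and EBNA1BP2, against 13.8% of all windows. A match is a description of the sequence and not evidence of binding. The windows of 4 genes described below are shown because these genes had the smallest p-values, in the fit with batch as block, among the genes described array by array whose window holds an E-box. They are chr12:101279855-101280154 on the plus strand for UTP20, chr4:4289972-4290271 on the minus strand for LYAR, chr1:19251555-19251854 on the plus strand for MRTO4 and chr3:51941855-51942154 on the minus strand for RRP9. They are written 5′ to 3′ along the gene, with the E-box in capitals.
UTP20: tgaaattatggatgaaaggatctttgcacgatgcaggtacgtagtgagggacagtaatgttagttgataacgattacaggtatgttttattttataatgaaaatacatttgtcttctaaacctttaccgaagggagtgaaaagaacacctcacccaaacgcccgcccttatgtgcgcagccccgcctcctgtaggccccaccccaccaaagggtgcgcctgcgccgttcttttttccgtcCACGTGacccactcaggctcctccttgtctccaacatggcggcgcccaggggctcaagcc
LYAR: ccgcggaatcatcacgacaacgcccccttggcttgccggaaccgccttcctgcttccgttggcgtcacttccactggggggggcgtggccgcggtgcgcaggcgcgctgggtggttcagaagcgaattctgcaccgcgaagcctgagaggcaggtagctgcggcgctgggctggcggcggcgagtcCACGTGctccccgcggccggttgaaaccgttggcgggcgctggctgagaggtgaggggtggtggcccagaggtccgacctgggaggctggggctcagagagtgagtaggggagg
MRTO4: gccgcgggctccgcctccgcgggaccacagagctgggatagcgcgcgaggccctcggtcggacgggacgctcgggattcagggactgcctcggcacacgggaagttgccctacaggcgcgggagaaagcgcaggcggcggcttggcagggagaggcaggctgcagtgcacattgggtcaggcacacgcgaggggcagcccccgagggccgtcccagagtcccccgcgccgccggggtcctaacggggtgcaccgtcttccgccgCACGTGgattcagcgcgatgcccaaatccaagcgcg
RRP9: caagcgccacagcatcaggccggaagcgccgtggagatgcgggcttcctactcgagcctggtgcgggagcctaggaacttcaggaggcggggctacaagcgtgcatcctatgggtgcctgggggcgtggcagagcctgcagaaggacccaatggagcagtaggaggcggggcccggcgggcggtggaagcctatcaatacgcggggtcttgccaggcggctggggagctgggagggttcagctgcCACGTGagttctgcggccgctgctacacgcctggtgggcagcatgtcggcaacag
The E-box begins 10 bases before the transcript start of UTP20, 64 before that of LYAR in the window shown and 5 before that of RRP9. LYAR has another window, chr4:4290105-4290404 on the minus strand, which holds no E-box. In MRTO4 it begins 14 bases after the start.

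Values are the deposited log2 expression values, where a difference of 1 is a doubling, and the number of arrays limits their precision. LEF1 itself was lower on every LEF1 siRNA array than on every control array, at 8.32 ± 0.30 (SD, n = 3) against 11.04 ± 0.43 (limma adjusted p = 0.0213 without block). The mean of 6 measured of 7 B cell markers ran from 11.59 to 11.77 across the arrays, and that of 4 measured of 5 germinal centre and Burkitt markers from 9.96 to 10.47. The latter mean differed by -0.19 with LEF1 siRNA, with batch differences of -0.19, -0.24 and -0.14. The median of its genes was -0.15. Averaged over batches 4 of 4 of its genes were below 0, and in batch 3 alone 2 of 4 were. The part of this shift in the results below was not tested. Among these markers, MME fell by 0.43 (limma adjusted p = 0.000605 with batch as block and 0.700 without). The 5 myeloid markers averaged between 6.51 and 6.63, the 6 T and NK cell ones between 6.83 and 6.94 and the 6 epithelial and stromal ones between 6.90 and 7.05, close to 6.91, the median over all probe sets, where values are mostly background. The difference between the 3′ and 5′ probe sets of ACTB, a measure of RNA integrity and labelling, was 0.05 ± 0.07 with scrambled siRNA and 0.23 ± 0.06 with LEF1 siRNA, with batch differences of 0.11, 0.33 and 0.12. The same measure for GAPDH was 0.07 in both groups. The part of RNA quality in the results below was not tested. In bulk RNA, fewer cells with a transcript and less of it per cell cannot be told apart.

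On the deposited scale few of the nucleolar genes passed the threshold, and the differences at their brightest probe sets ran from -0.31 to 0.20. All 33 lay above the median of all probe sets in mean level, between 8.46 and 14.03. Two-sided limma p-values were adjusted by Benjamini-Hochberg over 54613 probe sets, with a threshold of 0.05. In the fit without block, 0 of 33 genes were lower, where 0.0101% of all genes were, and 0 were higher, where 0.0152% were. The smallest limma adjusted p was 0.341, for RRP9, and at an unadjusted p under 0.05 there were 5 genes lower, against 2.29% of all genes, and 0 higher, against 7.6%. In the fit with batch as block, which compares the arrays within each batch, UTP20 and LYAR fell, 2 of 33 genes (6.06%) against 1.7% of all genes. In that fit 0 of 33 rose, against 6.73% of all genes. At an unadjusted p under 0.05 it had 8 lower, against 5.92% of all genes, and 3 higher, against 15.2%. At an adjusted p under 0.1, 5 were lower (LYAR, MRTO4, NPM1, RRP9 and UTP20), against 2.73% of all genes, and 3 were higher (NIP7, POLR1B and WDR75), against 9.18%.

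The direction in the single batches is given with no test. Of the 33 genes, 11 (33.3%) were lower with LEF1 siRNA in all 3 batches, where 13.7% of all genes were, namely BYSL, FBL, GAR1, LYAR, MRTO4, NCL, NPM1, RRP9, TSR1, UTP20 and UTP4. Another 7 (21.2%) were higher in all 3 batches, where 26% of all genes were, namely NIP7, NOLC1, NOP58, POLR1A, POLR1B, RRP1B and WDR75. Of these, NOLC1, POLR1A and RRP1B each had a dimmer probe set that was lower in all 3 batches, and POLR1B had a dimmer one that was not higher in all 3. Among the 11 lower genes, NCL, NPM1 and TSR1 each had a dimmer probe set that was not lower in all 3 batches. The median size of a difference, whatever its sign, was 0.104 over the 33 genes and 0.0609 over all genes.

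**Figure D1:**
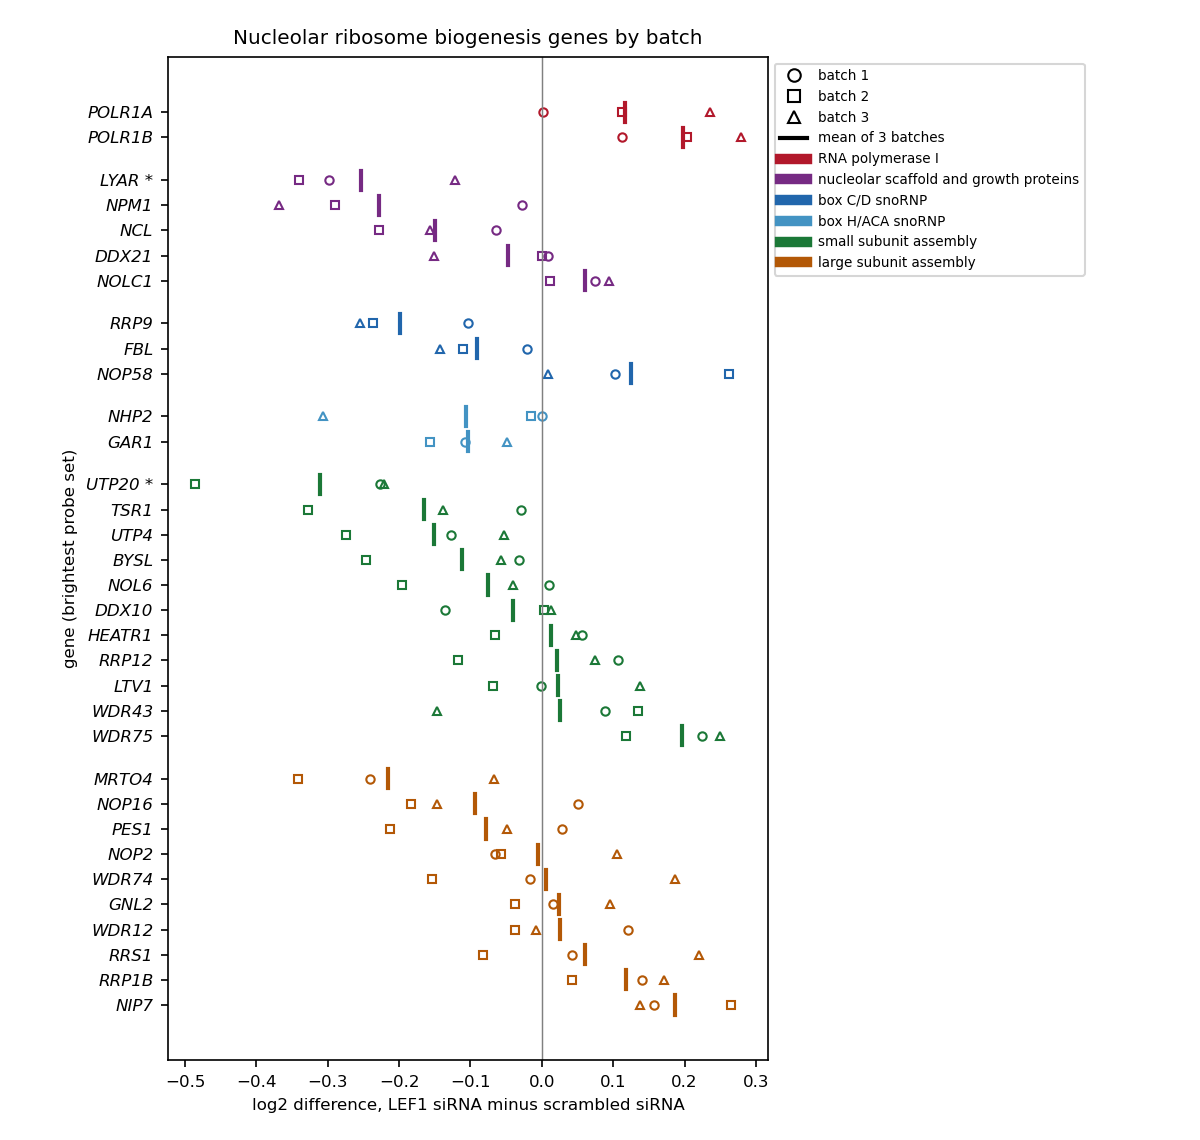
Log2 difference, LEF1 siRNA minus scrambled siRNA, of each of 33 nucleolar genes (rows, grouped and coloured by role) in batch 1 (circles), 2 (squares) and 3 (triangles), with the mean as a vertical bar. Asterisks mark UTP20 and LYAR, which passed with batch as block, and the means run from -0.31 to 0.20.

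The transcription machinery itself was represented by POLR1A and POLR1B, the largest and second largest subunits of RNA polymerase I. POLR1B was at 10.02, 10.30 and 10.50 in batches 1, 2 and 3 with scrambled siRNA and at 10.13, 10.51 and 10.78 with LEF1 siRNA. The groups overlap, although within each batch the LEF1 siRNA array was the higher. For the difference of 0.20 limma gave an adjusted p of 0.0641 with batch as block and 0.897 without. Over 11 other processing settings with batch as block it ran from 0.08 to 0.24, with limma adjusted p from 0.0455 to 0.352, and it passed in 2. A dimmer probe set of POLR1B, with a difference of 0.27, passed with batch as block (limma adjusted p = 0.00988), and its other 2 differed by 0.22 and 0.07 and did not. POLR1A differed by 0.12 at its brightest probe set and by -0.05 and -0.17 at its others, none of which passed.

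Among 13 further RNA polymerase I genes, all measured, 0 fell and 1 rose with batch as block. That was RRN3, the initiation factor that recruits the polymerase, from 9.81 ± 0.17 to 10.07 ± 0.18 (limma adjusted p = 0.0150, against 0.642 without block). The median difference of these 13 genes was 0.03, beside 0.02 over all genes. The arrays carry control probe sets for ribosomal RNA, of which the 28S ones differed by 0.18, with batch differences of 0.09, 0.20 and 0.25. The 18S ones differed by 0.18 as well, with batch differences of -0.09, 0.14 and 0.49. Labelling starts from poly(A) tails, so these values do not measure the rate of ribosomal RNA synthesis.

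Of 5 scaffold and growth proteins of the nucleolus, with batch as block 1 gene fell and 0 rose, and 4 had a difference below 0. LYAR encodes a zinc-finger protein of the nucleolus linked to cell growth. It was at 10.55, 10.77 and 10.76 with scrambled siRNA and at 10.26, 10.43 and 10.64 with LEF1 siRNA. Each LEF1 siRNA array was below the control of its batch, and the groups overlap only because batch 3 of the LEF1 siRNA group lies above batch 1 of the controls. The group means were 10.69 ± 0.12 and 10.44 ± 0.19 (SD, n = 3), a 1.19-fold lower level with a log2 difference of -0.25 (95% interval -0.38 to -0.12 with batch as block). The limma adjusted p was 0.0243 with batch as block and 0.607 without, and over 11 other settings with batch as block it ran from 0.000715 to 0.19. Without batch 1 it was 0.0657 and without batch 2 it was 0.19. The dimmer probe set of LYAR differed by -0.22 (limma adjusted p = 0.0716 with batch as block).

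The abundant scaffold proteins did not pass. NPM1, the chaperone nucleophosmin, differed by -0.23 at its brightest probe set (limma adjusted p = 0.0658 with batch as block), where the groups did not overlap, at 13.97 to 14.30 against 13.85 to 13.95. Its other probe sets differed by 0.02 and -0.06, and the brightest is of a type that can share probes with related sequences, such as the pseudogenes of NPM1. NCL, nucleolin, differed by -0.15 (limma adjusted p = 0.183), DDX21, an RNA helicase, by -0.05, and NOLC1, a chaperone of small nucleolar ribonucleoproteins, by 0.06. The dimmer probe sets of NOLC1 differed by -0.10 and -0.14 and were both lower in all 3 batches, and that of DDX21 by -0.12.

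Of the box C/D proteins, which methylate ribosomal RNA, 0 of 3 measured genes passed in either direction. RRP9 belongs to the U3 particle, which is needed to cut the precursor for the small subunit. It was at 8.88, 8.94 and 8.92 with scrambled siRNA and at 8.78, 8.71 and 8.67 with LEF1 siRNA. The groups did not overlap, and the controls lay within 0.0607 of each other, the narrowest control range of the 33 genes. The means were 8.92 ± 0.03 and 8.72 ± 0.06 (SD, n = 3), and for the difference of -0.20 limma gave an adjusted p of 0.0640 with batch as block and 0.341 without. It passed in 5 of 11 other settings with batch as block, among them quantile normalization (limma adjusted p = 0.0149). FBL, the methyltransferase fibrillarin, differed by -0.09, and NOP58, a core protein of the particle, by 0.12.

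Of the box H/ACA proteins, which turn uridine into pseudouridine, 0 of 2 measured genes passed. NHP2, a core protein, was at 13.27, 13.17 and 13.64 with scrambled siRNA and at 13.27, 13.15 and 13.33 with LEF1 siRNA. The batch differences were 0.00, -0.02 and -0.31, and for the difference of -0.11 limma gave an adjusted p of 0.491 with batch as block. GAR1, a further core protein, differed by -0.10 and was lower in all 3 batches. Among 10 other genes for proteins of these particles or their assembly, 0 fell and 2 rose with batch as block. These were NAF1, an assembly factor of box H/ACA particles, by 0.23 (limma adjusted p = 0.0301) and ZNHIT6, an assembly factor of box C/D particles, by 0.21 (limma adjusted p = 0.0417). The median difference of the 10 was -0.04.

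**Figure D2:**
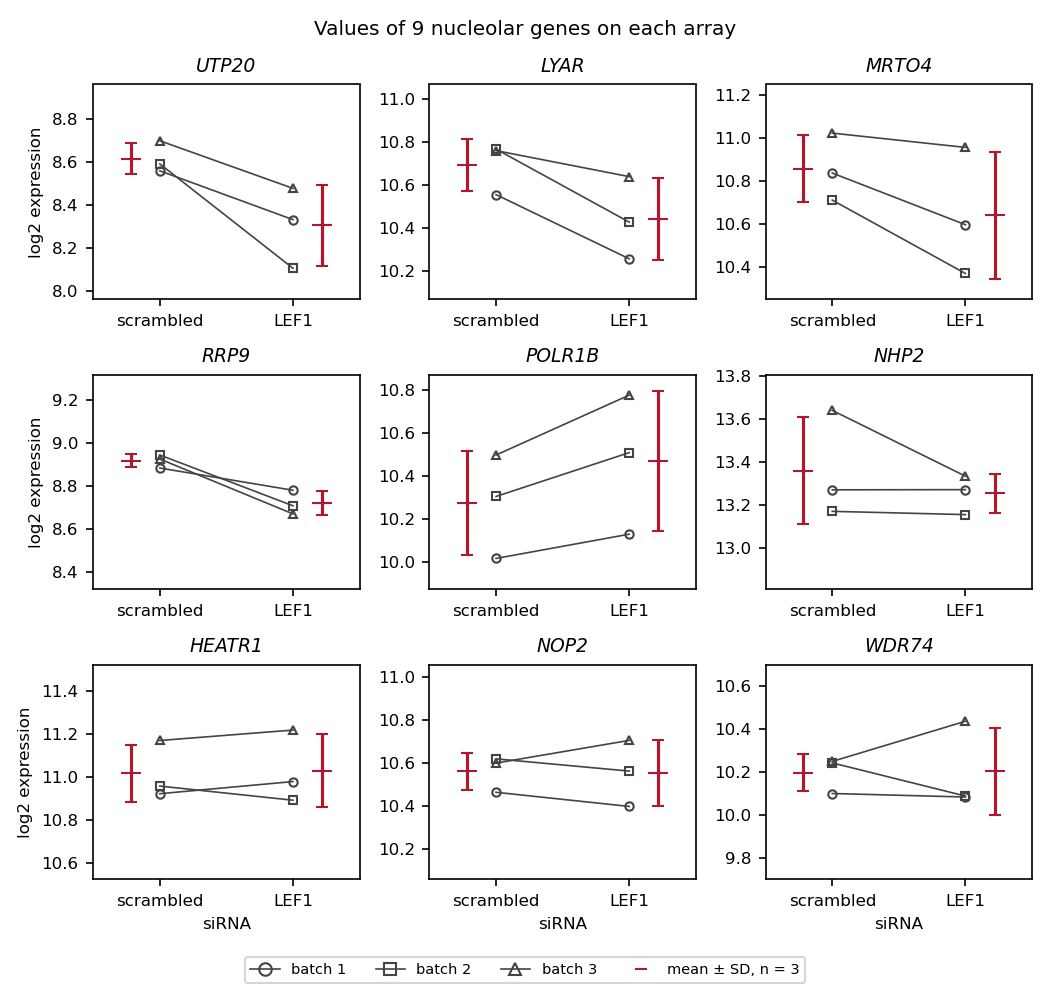
Log2 expression of 9 nucleolar genes on each array, with lines joining the scrambled siRNA and LEF1 siRNA arrays of batch 1 (circles), 2 (squares) and 3 (triangles), and group means ± SD (n = 3) in red. Each panel spans 1 log2 unit around its own centre. UTP20 and RRP9 have groups that do not overlap, and HEATR1, NOP2 and WDR74 have the smallest differences of the 33 genes at their brightest probe sets.

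The small subunit factors held the largest fall of the 33 genes, that of UTP20. UTP20 is a very large repeat protein that helps to process the precursor of the small subunit. It was at 8.56, 8.59 and 8.70 with scrambled siRNA and at 8.33, 8.11 and 8.48 with LEF1 siRNA. All LEF1 siRNA arrays were below all control arrays, and batch 2 had the widest gap, with a difference of -0.49 against -0.23 and -0.22 in batches 1 and 3. The means were 8.62 ± 0.07 and 8.30 ± 0.19 (SD, n = 3), a 1.24-fold lower level with a log2 difference of -0.31 (95% interval -0.45 to -0.17 with batch as block). The limma adjusted p was 0.0104 with batch as block and 0.396 without. It ran from 0.000225 to 0.125 over 11 other settings with batch as block and missed the threshold in 1, without batch 2. UTP20 has 1 probe set, so no other checks it.

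The other 10 small subunit factors did not pass at their brightest probe sets, and of the 11 together 6 had a difference below 0. TSR1 and BYSL, which act on the late precursor, differed by -0.17 and -0.11, and UTP4, an early-binding protein, by -0.15 at 1 probe set and -0.15 at its other. TSR1 did not keep that value at its dimmer probe sets, where it differed by 0.01, 0.01 and -0.14. NOL6 differed by -0.07 and DDX10, a helicase, by -0.04. WDR75, an early-binding protein of the same complex as UTP4, had the opposite sign, at 0.20 (limma adjusted p = 0.0622 with batch as block). Its groups did not overlap, at 10.250 to 10.466 with scrambled siRNA and 10.475 to 10.715 with LEF1 siRNA. LTV1, RRP12 and WDR43 differed by 0.02, 0.02 and 0.03.

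HEATR1, also an early-binding protein, differed by 0.01 (limma adjusted p = 0.954 with batch as block), among the smallest. It was at 10.92, 10.96 and 11.17 with scrambled siRNA and at 10.98, 10.89 and 11.22 with LEF1 siRNA, so its groups overlap almost entirely. Of its 5 probe sets, 2 dimmer ones rose with batch as block, by 0.20 (limma adjusted p = 0.0464) and 0.21 (limma adjusted p = 0.0441), and the other 2 differed by -0.01 and -0.10. Among 35 measured of 36 other genes of the small subunit processome, 0 fell and 1 rose with batch as block. That was DDX52, a helicase, by 0.23 (limma adjusted p = 0.0336), and the median difference of the 35 was -0.04.

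Of the large subunit factors, 0 of 10 measured genes passed at their brightest probe sets, with 4 below 0. MRTO4, which holds the place of a ribosomal stalk protein on the precursor, came nearest. It was at 10.84, 10.71 and 11.02 with scrambled siRNA and at 10.60, 10.37 and 10.96 with LEF1 siRNA. Each array with LEF1 siRNA was below its control, by as little as 0.07 in batch 3, and the groups overlap. For the difference of -0.22 limma gave an adjusted p of 0.0625 with batch as block and 0.839 without, and its dimmer probe set, which also differed by -0.22, passed with batch as block (limma adjusted p = 0.0495). NIP7, a factor in late processing of the large subunit precursor, differed by 0.19 at its brightest probe set (limma adjusted p = 0.0780) and rose by 0.28 at the dimmer one (limma adjusted p = 0.0107), both with batch as block.

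NOP2, a methyltransferase of large subunit ribosomal RNA, and WDR74 had the smallest differences at their brightest probe sets. NOP2 was at 10.46, 10.62 and 10.60 with scrambled siRNA and at 10.40, 10.56 and 10.71 with LEF1 siRNA. The difference of -0.01 had a 95% interval of -0.13 to 0.12 with batch as block (limma adjusted p = 0.981). WDR74 was at 10.10, 10.24 and 10.25 against 10.09, 10.09 and 10.44, and its difference was 0.01, from batch differences of -0.02, -0.15 and 0.19. A second probe set of WDR74, at 10.24 with scrambled siRNA and 10.08 with LEF1 siRNA, differed by -0.16 and was lower in all 3 batches (limma adjusted p = 0.208 with batch as block). PES1 and WDR12, partners in a complex needed for the large subunit, differed by -0.08 and 0.02. NOP16 differed by -0.09, RRS1 by 0.06, GNL2, a nucleolar GTPase, by 0.02, and RRP1B by 0.12. RRP1B pointed the other way at its dimmer probe set, by -0.24 (limma adjusted p = 0.0766 with batch as block).

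Among 34 other large subunit genes, all measured, 1 passed in each direction with batch as block. GTPBP4, a nucleolar GTPase, rose by 0.26 (limma adjusted p = 0.0169) and RRP1, a relative of RRP1B, fell by 0.22 (limma adjusted p = 0.0423), with a median of -0.03 over the 34. Of 14 measured of 15 genes for export and cytoplasmic maturation of the subunits, 0 passed, and the largest differences were 0.19 for RIOK3 and -0.16 for TSR2. The RNA exosome, which trims ribosomal RNA precursors among many other RNAs, had 3 fallen and 1 risen gene of 13 measured of 14. EXOSC2 fell by 0.33, EXOSC9 by 0.25 and EXOSC8 by 0.24, whereas DIS3, a nuclease of the complex, rose by 0.35 (limma adjusted p = 0.00402, 0.0169, 0.0414 and 0.00599 with batch as block). The median over the 13 was -0.09. None of the genes of these lists passed without block.

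Of all 73 probe sets of the 33 genes, 3 fell and 4 rose with batch as block. Of all 54613 probe sets, 827 fell and 2501 rose in that fit. The falls were at UTP20, LYAR and MRTO4, and the rises at POLR1B, NIP7 and at 2 probe sets of HEATR1. Counting any probe set of a gene therefore gave 3 of 33 genes in each direction, against 2.98% of all genes lower and 9.2% higher. Of 21 genes with over 1 probe set, 9 had the same sign at all of them.

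**Figure D3:**
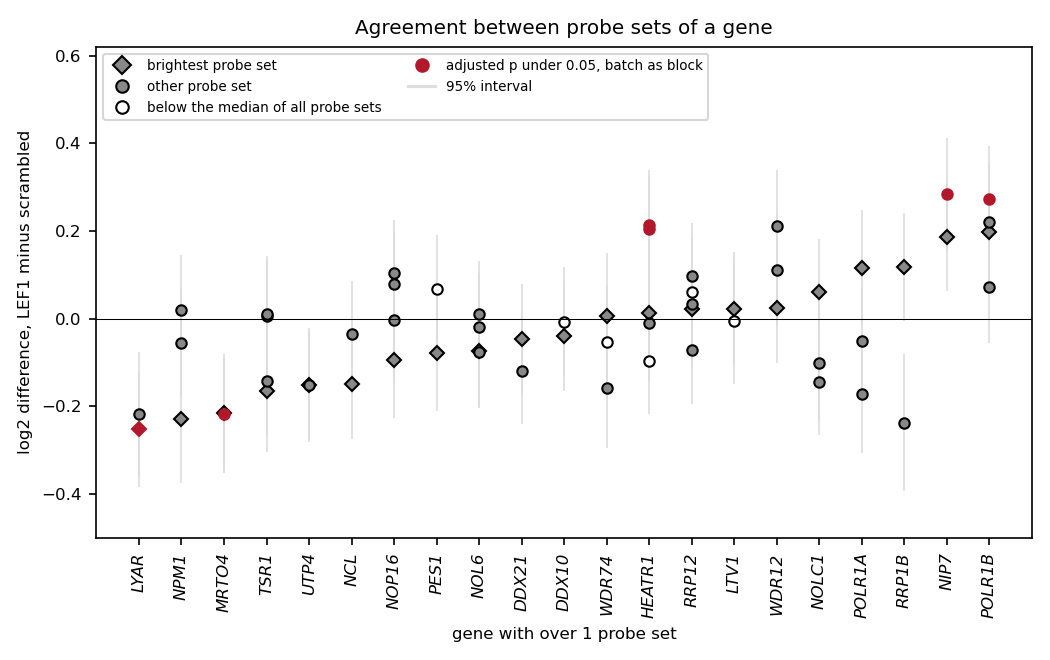
Log2 difference, LEF1 siRNA minus scrambled siRNA, of every probe set of the 21 nucleolar genes with over 1, with 95% intervals from the fit with batch as block. Diamonds mark the brightest probe set, open symbols those below the median of all probe sets, and red those that passed with batch as block: LYAR, MRTO4, NIP7, POLR1B and 2 of HEATR1.

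The 31 genes that did not pass are bounded by their intervals. With batch as block every 95% interval of these 31 lay within 0.5 of 0 on the log2 scale, from a lowest bound of -0.37 to a highest of 0.32. Without block this did not hold for MRTO4, at -0.55 to 0.12, and POLR1B, at -0.20 to 0.59. In 29 of the 33 genes the range over the 3 control arrays exceeded the size of the difference, and in 28 the groups overlap. The same counts were not made over all genes, so they only describe these 33. The median range over the control arrays was 0.244.

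With batch as block more of these genes passed between batches than between the siRNAs, and the same held over all genes. Between the siRNAs 1.7% of all genes fell and 6.73% rose. In 29 of 33 genes batch 3 had the highest mean, a count that was not made over all genes and only describes these 33. The average of batch 3 minus batch 1 was 0.185 over the 33 genes, against 0.0308 over all genes. In an F-test between batches within the same limma fit, 12 of 33 genes (36.4%) passed, against 17.4% of all genes. That test takes the batch differences jointly, whereas the test between the siRNAs takes a single difference. The smallest p was that of POLR1B, with batch 3 above batch 1 by 0.56 (limma adjusted p = 0.00073), followed by GAR1 and MRTO4, with batch 3 above batch 2 by 0.49 and 0.45 (limma adjusted p = 0.00109 and 0.00487).

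The mean of the 33 genes per array was 10.76, 10.80 and 10.95 with scrambled siRNA and 10.76, 10.71 and 10.94 with LEF1 siRNA. The difference of the means was -0.037, and most of it came from batch 2, at -0.094, with -0.005 and -0.013 in batches 1 and 3. The 33 differences had a median of -0.040 and an SD of 0.13, with 18 below 0 (54.5%). Over all genes the median was 0.019 and the SD 0.13, with 40.8% below 0. Batch 2 also had the widest ACTB difference between 3′ and 5′ probe sets, of 0.33, whose part in this was not tested. Without batch 2 the mean was -0.0087.

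By role the mean differences were 0.16 for the RNA polymerase I subunits, -0.12 for scaffold and growth proteins, -0.06 for box C/D, -0.11 for box H/ACA, -0.05 for small subunit and 0.00 for large subunit factors. Under the 4 other scalings these kept their sign, except that the large subunit mean turned to between -0.12 and -0.01 and that POLR1A turned to -0.003 with the spike-ins. Scaling each array to its poly-A spike-in RNAs, which were on average 0.12 higher on the LEF1 siRNA arrays, lowers every difference by that amount and moved the median of all genes from 0.02 to -0.10. On that scale 15 of 33 nucleolar genes fell with batch as block, against 13.9% of all genes, and 0 rose, against 2.75%. Their mean was then -0.157, and 11 genes turned from above to below 0. Measured against the median of all genes, the mean of the 33 was -0.0567 on either scale, a gap that a shift of all genes of an array cannot change. Which scale gives the amount of transcript per cell was not tested.

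**Figure D4:**
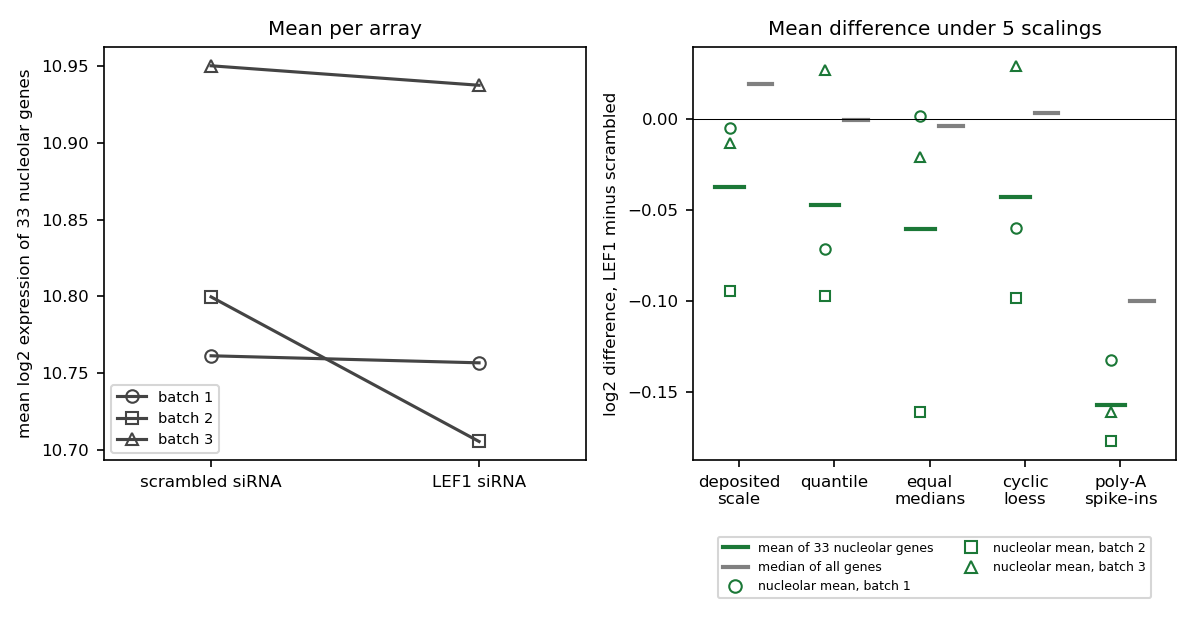
Left, mean log2 expression of 33 nucleolar genes on each of 6 arrays, with lines joining the arrays of a batch; right, their mean log2 difference under 5 scalings (green bars, with batches as open symbols) beside the median of all genes (grey bars). The mean is below that median under each scaling, and poly-A spike-in scaling lowers both. Equal medians and spike-in scaling shift all genes of an array alike, so they cannot change the gap between mean and median.

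The products that the nucleolus assembles and a regulator known to bind the E-box were read beside these genes. Of 33 listed cytosolic ribosomal protein genes 20 were measured and 0 passed, with a median of -0.05. Their mean differed by 0.06, 0.01 and -0.21 in batches 1, 2 and 3. Of 18 measured of 19 RNA polymerase III genes, 0 passed, with a median of -0.004. MYC was at 13.05, 12.88 and 13.15 with scrambled siRNA and at 12.87, 12.73 and 13.02 with LEF1 siRNA, lower within each batch, and the groups overlap. For its difference of -0.15 limma gave an adjusted p of 0.155 with batch as block and 0.820 without. Of 8 measured of 9 MYC and MAX network genes, only MXD1, a repressor that pairs with MAX, passed with batch as block, with a rise of 0.31 (limma adjusted p = 0.00420). In the same arrays 11 of 19 DNA replication genes fell and 0 rose with batch as block, with a median of -0.25. CDC45, a component of the replicative helicase, fell by 0.40 (limma adjusted p = 0.00117) and RRM2, a subunit of ribonucleotide reductase, by 0.35 (limma adjusted p = 0.00674). None of these 19 passed without block.

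**Figure D5:**
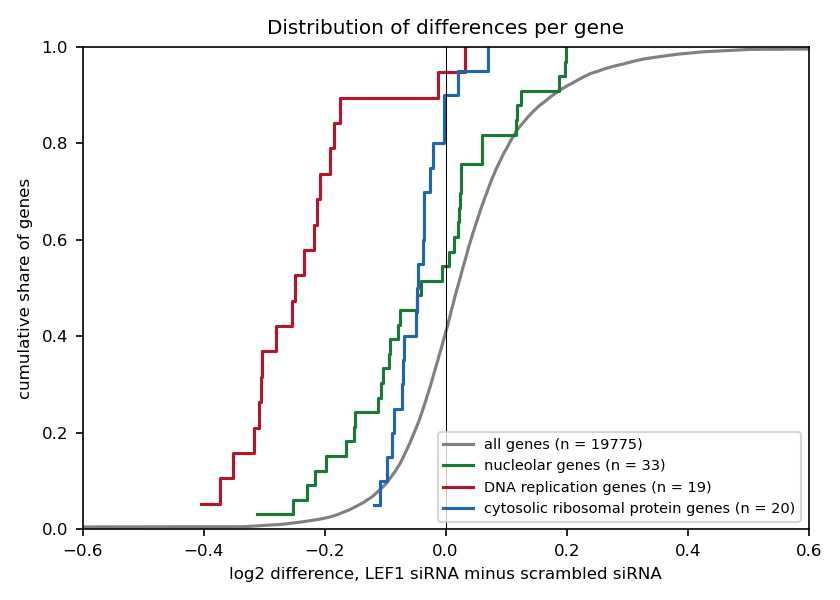
Cumulative share of genes (vertical axis) by log2 difference, LEF1 siRNA minus scrambled siRNA (horizontal axis), for 33 nucleolar, 19 DNA replication and 20 cytosolic ribosomal protein genes and all 19775 genes. The nucleolar genes run from -0.31 to 0.20 on both sides of 0, with a median of -0.040 against 0.019 for all genes.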

How the data were processed

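Gene expression was measured on HG-U133 Plus 2.0 arrays. Per the labels' protocols, total RNA was turned into biotinylated cRNA by in vitro transcription from the 3′ end. The authors deposited 1 log2 value per probe set and array, from 5.451 to 14.95 over 54675 probe sets. Their background correction, normalization and summarisation were not given in the sources used here, and the log2 scale was read from the range. The 62 control probe sets were left out of the tests. Gene names were taken from the array platform's annotation, and a comparison with RefSeq (GRCh38.p14) changed 0 symbols. Of 54613 probe sets, 41091 named 1 gene, 1801 several and 11721 none.

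Differences were fitted on all probe sets with limma 3.58.1 (lmFit and eBayes) in R 4.3.3, without block and with batch as block. The data.table package (version 1.17.8) was also used. Both fits were run on simulated data whose planted differences were all larger than those of the nucleolar genes. The simulation therefore does not cover differences of the size reported here. The batch label pairs the arrays, and the deviations of paired arrays from their group means had correlations of 0.477, 0.493 and 0.621 across probe sets in batches 1, 2 and 3. The fits had 4 residual and 4.07 prior degrees of freedom without block, and 2 and 12 with it, so the latter draws most of its precision from the spread of other probe sets. Without block 10 probe sets passed, and with it 3328.

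The genes and lists were chosen with earlier results of these data known, so no list test was run. Values on every array are given for genes that passed in either fit, for the gene of each role with the largest difference and for the 3 genes with the smallest. From each other list, up to 4 genes that passed with the smallest p are named, or up to 2 with the largest difference where none passed. MYC and LEF1 are also named. Other genes are given as single differences. The comparison of batches and the split by E-box were chosen after the values were seen. Alternatives covered scaling, choice of probe set, dim probe sets, eBayes settings, array weights, thresholds and leaving out arrays or batches. Promoters were read with pandas 2.3.3 in Python 3.11.15, and figures drawn with matplotlib 3.10.9.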

Additional observations from a re-analysis of the deposited data

How the results depend on the processing

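In the fit without block, the count of nucleolar genes lower was 0 on the deposited scale and under every alternative but batch as replicate block, where it was 2, and the count higher stayed at 0. Shares of all genes follow in brackets. With batch as block, the 2 genes lower became 0 with no replicate block (0.0101%) and 15 with poly-A spike-in scaling (13.9%). The count lower was 5 at an adjusted p under 0.1 (2.73%) and 0 at one under 0.01 (0.652%). With 1 probe set per gene in the fit it was 5 (2.11%). The count higher, 0, became 3 with any probe set (9.2%) and 2 with the most variable probe set (8.22%). It became 3 at an adjusted p under 0.1 (9.18%) and 2 with 1 probe set per gene in the fit (7.75%). Leaving out each batch in turn gave 0 to 3 genes lower (0.622% to 2.31%) and 0 to 1 higher (3.24% to 7.36%). The mean difference of -0.0372 became -0.157 with poly-A spike-in scaling and ran from -0.0535 to -0.0087 without single batches. The mean stayed below 0 under each alternative, although within batch 3 it turned from -0.0128 to 0.0273 after quantile normalization and 0.0294 after cyclic loess, and within batch 1 to 0.00182 at equal medians. Leaving out probe sets ending in _s_at, _x_at or _a_at kept 28 genes. The pairing by batch thus decides both calls, and the cause of the other shifts was not tested. With 3 arrays per group and 12 prior degrees of freedom, a call with batch as block rests largely on the shared spread.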

Other observations

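The nucleolar genes were split by the E-box in their promoter window, a split made after the values were seen and given with no test. The 15 measured genes with CACGTG in a window had a mean log2 difference, LEF1 siRNA minus scrambled siRNA, of -0.10, with batch means of -0.07, -0.18 and -0.07. Of these 15 genes 12 were below 0 (80.0%), 8 were lower in all 3 batches, and 2, UTP20 and LYAR, fell with batch as block. The 13 measured genes with a window but no match had a mean of -0.003, with batch means of 0.03, -0.05 and 0.00. Of these 13 genes 6 were below 0 (46.2%), 3 were lower in all 3 batches and 0 fell with batch as block. The SD over genes was 0.10 with the E-box and 0.14 without it. The sets also differed in mean level, at 10.37 with the E-box and 11.18 without it, and the part of level was not tested. The mean was also lower with the E-box than without it after quantile normalization, at -0.12 against -0.006. After cyclic loess it was -0.12 against -0.0008. Scaling to equal medians or to the poly-A spike-ins shifts all genes of an array alike. Those 2 scalings therefore cannot change the gap between the sets, at -0.22 against -0.12 with the spike-ins. Over all genes the means were 0.03 for 1672 genes with a match and 0.03 for 13712 without. Of these, 41.6% with and 40.4% without a match were below 0, 257 and 1870 were lower in all 3 batches, and 34 and 234 fell with batch as block.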
